A study of Mus musculus with 4 samples.

Results

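In 4 mouse libraries, 59 of 11137 genes differed at least 2-fold between a melatonin-treated and an untreated septic mouse group in kidney and again at least 2-fold in heart. They were selected on their measured values: within each tissue the CLP + MLT level was divided by the CLP level, and a gene was kept when the log2 of this quotient was 1 or more in size in both tissues. By the sign of the 2 ratios the genes fell into 25 that were higher in both tissues, 15 that were lower in both, 13 that were higher in kidney and lower in heart, and 6 that were lower in kidney and higher in heart. The same sign was thus shared by 40 genes, and 19 had opposite signs. Because the ratios chose the genes, the ratios are given as a description and no test was made on them.

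CLP, cecal ligation and puncture, lets gut bacteria leak into the abdomen and causes sepsis, and MLT is melatonin, the pineal hormone of the night. The series held 1 library each of CLP kidney, CLP + MLT kidney, CLP heart and CLP + MLT heart. For the kidneys, the methods give male C57BL/6 mice of 8 weeks, 14 days of MLT in the drinking water (25 μg/ml), CLP on day 15 and collection 24 h later. All 4 libraries came from mice with CLP, so no healthy level was measured. For the hearts no dose or time is given in the sources used here, and whether a heart and a kidney library came from the same mouse, or a library from 1 mouse or several, is not stated either. With 1 library per group, the spread between mice is unknown, and each interval below is a 95% interval that covers counting error only.

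Sepsis sets off the acute phase response, in which cytokines such as interleukin 6 raise the production of serum amyloid A, lipocalin 2, protease inhibitors and complement proteins, mostly in liver but also in other organs. Glucocorticoids from the adrenal add to it, and both reach kidney and heart through the blood. Kidney tubule and heart muscle are both rich in mitochondria and otherwise share few of their abundant transcripts.

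From 15883057 to 22927905 reads were counted on genes per library, and the TMM scaling factors lay between 0.935 and 1.07. Mitochondrially encoded genes held 14.8% of all counts in the CLP kidney, 24.2% in the CLP + MLT kidney, 31.6% in the CLP heart and 36.0% in the CLP + MLT heart library. The tissue labels held for their markers: 8 cardiomyocyte markers summed to 31370 and 20760 CPM (the count scaled to the effective size of the library, separately for each tissue) in the CLP and CLP + MLT heart libraries and to 8.80 and 14.7 CPM in the kidney libraries. Proximal tubule markers, 8 genes, summed to 22585 and 32996 CPM in the kidney libraries. In the heart libraries they were not at 0, and summed to 371 CPM with CLP and 780 CPM with CLP + MLT.

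The 2-fold limit was passed by few genes in either tissue. In kidney 127 of the 11137 tested genes were at least 2-fold higher in CLP + MLT (1.14%) and 156 at least 2-fold lower (1.40%). In heart the numbers were 145 higher (1.30%) and 306 lower (2.75%). The genes higher in both made up 19.7% of those higher in kidney and 17.2% of those higher in heart, and the genes lower in both made up 9.62% of those lower in kidney and 4.90% of those lower in heart. Of the kidney genes past the limit upward, 10.2% were past it downward in heart, and of those past it downward in kidney, 3.85% were past it upward in heart. Over all tested genes the ratios of the 2 tissues had a Pearson r of 0.047 and a Spearman rho of 0.011, across genes, which are not independent replicates and in each tissue share 2 libraries and their scaling.

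**Figure D1:**
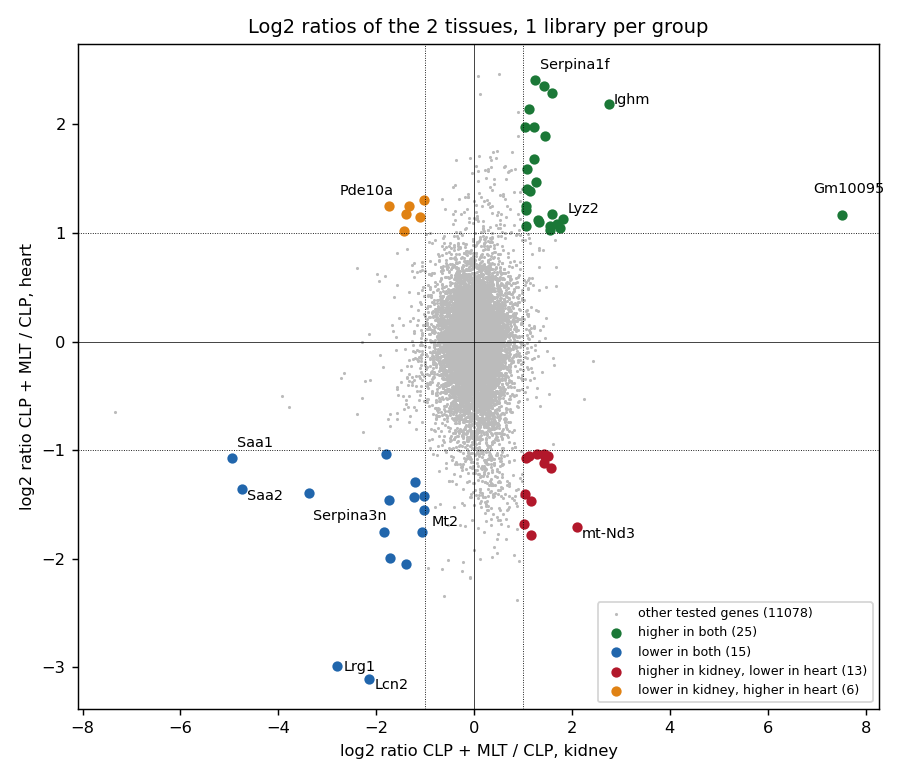
Log2 ratio of CLP + MLT over CLP in heart (vertical axis) against that in kidney (horizontal axis) for the 11137 tested genes, 1 point per gene, with dotted lines at 2-fold. The 59 coloured genes lie past the lines in both tissues, and Lrg1 and Lcn2 stand lowest, with log2 ratios of −2.99 and −3.10 in heart.

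Counting error alone leaves fewer genes clearly past the limit in both tissues. The counting intervals of both ratios lay wholly beyond 2-fold for 22 of the 59 genes: 10 of those higher in both, 7 of those lower in both, 5 of those higher in kidney and lower in heart, and 0 of those lower in kidney and higher in heart. Just inside the limit for the same sign were Mt2, Gm45774 and Ttc36, whose smaller log2 ratio had a size of 1.02, 1.02 and 1.03, and just outside were Stap1 (0.99), Zbtb16 (0.98) and Basp1 (0.98). For opposite signs, Gatm, Cox6c2 and Gm10197 lay just inside, with 1.02, 1.02 and 1.03, and Zfp9 (0.99), Gm44386 (0.97) and Uba6 (0.97) just outside.

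The genes lower in both organs were led by acute phase products. Lrg1, leucine-rich alpha-2-glycoprotein, a secreted protein of inflamed endothelium and liver, had 4629 counts in CLP kidney and 418 in CLP + MLT kidney, and 4383 in CLP heart and 548 in CLP + MLT heart. Its log2 ratio was −2.80 (−2.94 to −2.65) in kidney and −2.99 (−3.12 to −2.86) in heart, 6.95-fold and 7.94-fold lower. The lower level with MLT in both organs follows from the selection, and the difference between the 2 log2 ratios was only 0.19 (−0.00 to 0.39).

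Lcn2 encodes lipocalin 2, which binds the iron carriers of bacteria and is a urine marker of tubular injury. It had 11346 and 1600 counts in the CLP and CLP + MLT kidney libraries and 3224 and 372 in the heart libraries. This gave log2 ratios of −2.15 (−2.23 to −2.08) in kidney and −3.10 (−3.26 to −2.95) in heart, the lowest ratio of any tested gene in heart. Per kilobase of exon, Lcn2 stood at 176 CPM and Lrg1 at 134 CPM in the CLP kidney library, and at 75.4 and 191 CPM in the CLP heart library, so that the order of the 2 genes differed between the organs. Lcn2 is also made by neutrophils, whose 5 markers summed to 20.8 CPM in CLP kidney and 14.9 in CLP + MLT kidney, and to 51.8 and 37.7 CPM in the heart libraries. Both sums were lower with MLT, by less than Lcn2. The markers did not move together: Ngp had log2 ratios of −3.82 in kidney and −1.83 in heart, and Retnlg 0.86 and 0.24. S100a8 had −0.11 and −0.56, S100a9 −0.74 and −0.80, and Csf3r 0.09 and −0.09. The part of neutrophils in the Lcn2 ratio was not tested. In bulk RNA, fewer cells of a type and less RNA per cell cannot be told apart.

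Other acute phase genes were lower in both organs by unequal amounts. Serpina3n, an inhibitor of serine proteases, went from 255 to 15 counts in kidney and from 3201 to 1207 in heart. Its log2 ratio was −3.38 (−4.27 to −2.67) in kidney and −1.40 (−1.49 to −1.30) in heart. Its level in the CLP library was far higher in heart, 196 CPM, than in kidney, 10.4 CPM. Lbp, the plasma protein that hands bacterial lipopolysaccharide to its receptor, had 220 and 59 counts in kidney and 185 and 68 in heart, with log2 ratios of −1.22 and −1.43.

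Saa1 and Saa2, the acute phase serum amyloid A proteins, were the members with the lowest kidney ratios. Saa1 had 3546 counts in CLP kidney and 72 in CLP + MLT kidney, against 153 in CLP heart and 72 in CLP + MLT heart. Its log2 ratio was −4.94 (−5.31 to −4.61) in kidney and −1.07 (−1.50 to −0.66) in heart, so that the heart interval reached below 2-fold. For Saa2 the counts were 484 and 11 in kidney and 174 and 67 in heart, with log2 ratios of −4.74 and −1.36. With CLP, Saa1 stood at 145 CPM in kidney and 9.38 CPM in heart, and with CLP + MLT at 4.68 and 4.45 CPM. Saa2 was the higher in kidney with CLP, at 19.7 CPM against 10.7 CPM in heart, and the lower in kidney with CLP + MLT, at 0.714 against 4.14 CPM. The kidney minus heart difference of log2 ratios was −3.87 (−4.40 to −3.34) for Saa1 and −3.38 (−4.33 to −2.43) for Saa2, the most negative of the 59 genes.

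The 2 genes are neighbours on chromosome 7 on opposite strands. Their transcripts were 96.7% identical over 2448 aligned bases, so that reads fitting both genes equally would be left out of the counts. The 250 bases before their start sites are printed because they show how alike the neighbours are even outside the transcript. They are from RefSeq on GRCm38.p6, chr7:46742981-46743230 on the minus strand for Saa1 and chr7:46751583-46751832 on the plus strand for Saa2, with the positions that differ in the alignment in capitals.
Saa1: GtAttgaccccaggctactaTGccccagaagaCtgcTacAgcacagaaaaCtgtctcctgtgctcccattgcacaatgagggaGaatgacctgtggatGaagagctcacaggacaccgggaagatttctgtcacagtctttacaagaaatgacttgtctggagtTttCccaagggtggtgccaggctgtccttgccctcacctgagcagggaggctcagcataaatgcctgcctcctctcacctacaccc
Saa2: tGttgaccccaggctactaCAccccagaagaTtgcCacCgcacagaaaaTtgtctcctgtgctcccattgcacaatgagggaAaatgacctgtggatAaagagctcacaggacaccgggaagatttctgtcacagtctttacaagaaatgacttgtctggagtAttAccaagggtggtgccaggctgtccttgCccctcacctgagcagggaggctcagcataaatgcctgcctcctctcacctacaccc
The alignment held 238 identical positions (94.8%). None of the motifs searched in the promoters was found in either promoter.

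Among the 14 acute phase genes that were tested of 23 listed, 5 were lower in both organs (Lcn2, Serpina3n, Saa1, Saa2 and Lbp) and 0 were in any other class. Their median log2 ratio was −1.86 in kidney and −0.63 in heart, against medians of −0.0002 and −0.0070 over all tested genes. At least 2-fold lower were 10 of the 14 in kidney, against 1.40% of all tested genes, and 6 in heart, against 2.75%, and 15 of the 11137 tested genes were lower in both. Fibrinogen genes were among those that did not join the shared group: Fgg had 13553 and 622 counts in kidney, a log2 ratio of −3.77, and 162 and 106 in heart, a log2 ratio of −0.60. Saa3, a relative made in macrophages and fat, missed the limit in kidney, with log2 ratios of −0.94 in kidney and −2.09 in heart.

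Cdkn1a and Rasd1 were also lower in both. Cdkn1a encodes p21, which stops the cell cycle by inhibiting cyclin-dependent kinases. It had 560 and 107 counts in kidney and 2516 and 628 in heart, with log2 ratios of −1.71 (−2.03 to −1.42) and −1.99 (−2.12 to −1.87). Its ratios in the 2 organs differed by 0.28 (−0.04 to 0.60). It was the only one of 17 tested cell cycle genes that was lower in both, and the medians of that list were 0.06 in kidney and 0.05 in heart. Rasd1, a small GTPase first described as induced by dexamethasone, had 181 and 54 counts in kidney and 96 and 28 in heart, with log2 ratios of −1.07 and −1.75. Of the 20 tested glucocorticoid-responsive genes, 3 were lower in both organs (Lcn2, Cdkn1a and Mt2), and the medians were −0.73 in kidney and −0.80 in heart. Rasd1 was not on that list. Zbtb16, a steroid-induced transcription factor on it, lay just outside the limit, with 338 and 55 counts in kidney and 769 and 386 in heart.

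Mt2 encodes metallothionein 2, a small protein that binds zinc and copper and is induced by metals and glucocorticoids. Its counts were 1854 and 573 in kidney and 2882 and 977 in heart, and its log2 ratios were −1.02 (−1.16 to −0.89) and −1.55 (−1.66 to −1.45). All of the heart interval but only part of the kidney interval lay beyond 2-fold. Gm45774, annotated as antisense RNA, overlaps Mt2 by 749 bases on the other strand and had 2226, 687, 3326 and 1229 counts in the CLP kidney, CLP + MLT kidney, CLP heart and CLP + MLT heart libraries. The kit did not mark the strand and the strand setting of the counting is not given, so the reads of the 2 genes cannot be told apart and they count as 1 signal at most. The neighbour Mt1 was lower by far less in kidney, with 3501 and 1848 counts and a log2 ratio of −0.25, and lower in heart, with 15667 and 3591 counts and a log2 ratio of −2.12.

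The 250 bases before the Mt2 start are printed because metallothionein promoters are a textbook case of short metal response elements. They lie at chr8:94172368-94172617 on the plus strand (GRCm38.p6, RefSeq), and capitals mark an AP-1 site (TGACTCA or TGAGTCA), the antioxidant response element that overlaps it (TGACNNNGC), and metal response element cores (TGCACNC or TGCGCNC).
Mt2: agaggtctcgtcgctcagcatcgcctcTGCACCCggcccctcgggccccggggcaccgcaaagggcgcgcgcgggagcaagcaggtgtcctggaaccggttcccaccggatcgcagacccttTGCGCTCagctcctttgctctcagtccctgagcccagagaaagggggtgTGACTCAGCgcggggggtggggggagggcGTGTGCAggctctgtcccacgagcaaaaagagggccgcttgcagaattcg
The cores begin 223, 128 and 50 bases before the start, the last of them on the other strand, and the AP-1 letters begin 79 bases before it. Searched on both strands, an AP-1 site was in 5.95% and a metal response core in 28.2% of the promoters of 27025 genes, which run from 250 bases before to 50 after a start site. Of the 59 genes, 29 had a promoter in the RefSeq table.

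Arntl encodes BMAL1, the activator of the circadian clock, which pairs with CLOCK to switch on the Per and Cry genes. It was the only one of 18 tested clock genes that was past the limit in both organs. In kidney it had 123 and 23 counts and in heart 357 and 129, with log2 ratios of −1.73 (−2.46 to −1.10) and −1.46 (−1.76 to −1.16). Npas2, which can take the place of CLOCK, had 34 and 11 counts in kidney, where it was under the filter, and 141 and 52 in heart, with log2 ratios of −0.93 and −1.42. The 5 tested genes on the BMAL1 side did not move as one: their medians were −0.19 in kidney and −0.32 in heart, and 2 of them were above 0 in each organ. On the opposing side of the loop, the 13 tested genes had medians of 0.37 in kidney and 0.82 in heart and 0 were past the limit in both organs. Per2, a repressor of BMAL1, came nearest, with 1432 and 1846 counts in kidney and 1842 and 3507 in heart and log2 ratios of 1.04 and 0.94. Per3 had 1.33 and 0.85. The hour of day at which each mouse was killed is not given.

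Transcription of Arntl is textbook biology for the ROR element, which REV-ERB proteins bind to repress the gene. RefSeq gives 2 start sites for Arntl, and such an element was found in the promoter window of the second alone, from 26 to 36 bases after the start. It is in capitals in the 30 bases at chr7:113207528-113207557 on the plus strand (GRCm38.p6).
Arntl: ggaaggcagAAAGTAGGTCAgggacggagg
An ROR element, searched on both strands, was in 0.459% of the 27025 genes' promoters and in that of no other member. The gene for REV-ERB alpha, Nr1d1, had 1906 and 775 counts in kidney and 1086 and 1049 in heart. It was thus lower in the CLP + MLT kidney, with a log2 ratio of −0.63, and in heart the ratio was −0.04.

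The remaining genes lower in both were of immune or uncertain function. C4b, complement component 4, had 251 and 45 counts in kidney and 1509 and 733 in heart, with log2 ratios of −1.80 and −1.03. Its transcript was 96.0% identical to that of C4a, which had 52 counts or fewer in each library. Fcgr4, an activating receptor for IgG on macrophages and neutrophils, had 137 and 37 counts in kidney and 87 and 35 in heart, with log2 ratios of −1.21 and −1.29. Syt12, a synaptotagmin, had 350 and 61 counts in kidney and 361 and 106 in heart, and the RNA A930001C03Rik, which overlaps it by 3066 bases on the other strand, had 353 and 84 in kidney and 177 and 42 in heart. The Syt12 log2 ratios were −1.84 and −1.75, nearly equal, and those of its partner were −1.40 and −2.05. As for Mt2, reads of the overlap cannot be assigned to 1 strand.

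**Figure D2:**
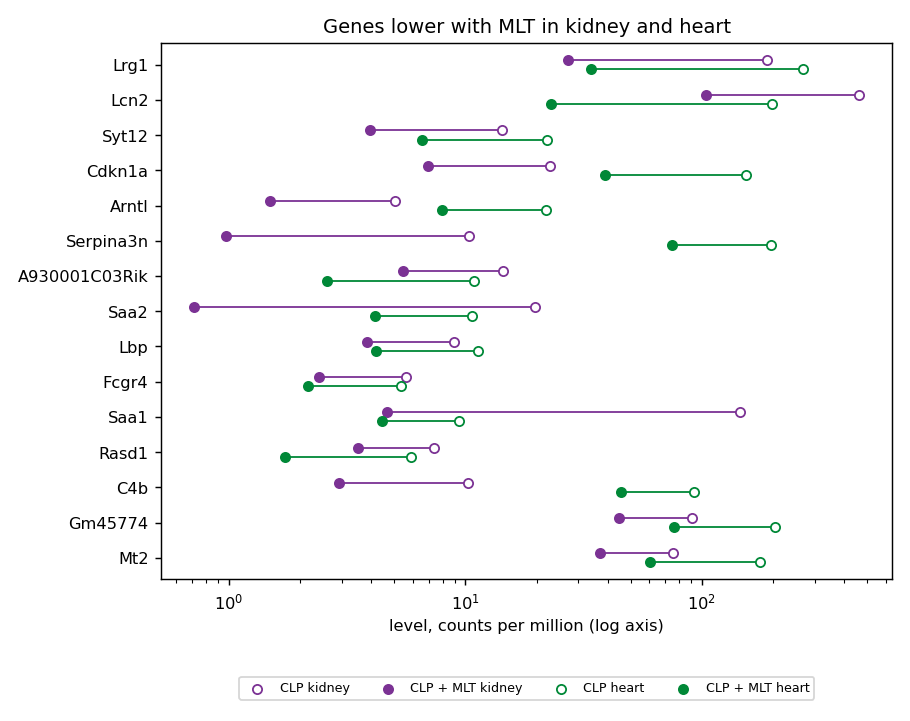
Level in CPM (log axis) of the 15 genes lower with MLT in both organs, with open circles for the CLP and filled circles for the CLP + MLT library of kidney (violet) and heart (green). Saa1 spans from 145 to 4.68 CPM in kidney and from 9.38 to 4.45 CPM in heart, whereas Lrg1 spans nearly the same range in both organs.

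The 25 genes higher in both organs split by where they are expressed. In the CLP libraries, 12 of them stood 10 times or more higher in kidney than in heart, a level ratio found in 3.38% of all tested genes. They included Slc12a1, the sodium, potassium and chloride cotransporter of the thick ascending limb, Akr1c21, a steroid-metabolizing reductase, Nat8f1, an acetyltransferase, Eci3, an isomerase of fatty acid oxidation, and Serpina1f, a serpin. Their median log2 ratio was 1.24 in kidney and 1.94 in heart. Of the 12, only Slc12a1, Nlrp6, Ttc36 and Gm48702 had 50 or more counts in the CLP heart library. The rest reached the required heart mean of 50 only through the CLP + MLT heart library. A low CLP heart count raises both the level ratio and the heart log2 ratio. The contrast with 3.38% is thus partly built in by filter and selection, and is a description only. Scaled by library size only, 17 of the 25 were still past the limit, and among others the kidney ratios of Slc12a1, Nlrp6, Apoc3 and BC024386 were not.

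Slc12a1 had 20190 and 26639 counts in kidney and 137 and 411 in heart, with log2 ratios of 1.07 (1.05 to 1.10) and 1.59 (1.31 to 1.88). Serpina1f had 4267 and 6361 counts in kidney and 20 and 108 in heart, a log2 ratio of 1.25 (1.19 to 1.30) against 2.41 (1.75 to 3.21). Akr1c21 went from 5254 to 8866 in kidney and from 40 to 205 in heart, with log2 ratios of 1.43 and 2.35. Measured as CPM, the heart held 1.02%, 0.705% and 1.15% of the kidney level of these 3 genes with CLP, and 1.47%, 1.61% and 2.20% with MLT.

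Nat8f1 had 2079 and 3936 counts in kidney and 26 and 128 in heart, with log2 ratios of 1.59 and 2.29. Eci3 had 2367 and 3476 in kidney and 30 and 119 in heart, with log2 ratios of 1.23 and 1.98. Both Nat8f1 and Eci3 overlap another gene on the opposite strand: Tprkb, with log2 ratios of 0.42 and −0.07, and 4933417A18Rik, with 1.15 and 2.41. Nlrp6, a sensor of inflammasomes that is abundant in gut and kidney epithelium, had 5908 and 8186 in kidney and 93 and 242 in heart. BC024386, an RNA gene that lies upstream of Nlrp6 on chromosome 7, had 4261 and 5788 in kidney and 41 and 182 in heart.

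Of the other kidney-rich genes, Cyp51, the lanosterol demethylase of cholesterol synthesis, had 2030 and 3834 counts in kidney and 46 and 104 in heart, with log2 ratios of 1.59 (1.51 to 1.67) and 1.18 (0.67 to 1.72). It was the only one of 15 tested genes of cholesterol synthesis past the limit in both organs, and the medians of that list were 0.12 in kidney and 0.12 in heart. Ttc36, a tetratricopeptide repeat gene, had 8041 and 14701 counts in kidney and 178 and 361 in heart, with log2 ratios of 1.54 and 1.03. Gm48702 lies on its other strand over 3442 bases and had 5040 and 8588 counts in kidney and 64 and 238 in heart, with log2 ratios of 1.44 and 1.90, so that these are again overlapping signals. Apoc3, an apolipoprotein of triglyceride-rich particles, had 2298 and 3003 counts in kidney and 32 and 76 in heart.

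Most markers of kidney tubule were also higher in the CLP + MLT heart library. There were 17, of which 14 had a heart log2 ratio above 0 and 8 were at least 2-fold higher. One of them, Slc12a1, is also one of the 12 genes, and without it the counts were 13 and 7 of 16. Slc5a2, Slc5a12 and Calb1 went the other way in heart, with log2 ratios of −0.36, −1.49 and −0.22, and were lower by more in kidney. The filter was not applied to the markers, and Slc5a12, Pvalb, Calb1, Aqp3, Fxyd4 and Atp6v1g3 were under it in heart. Of those at least 2-fold higher, Pvalb had 0 and 20 heart counts, Fxyd4 2 and 22, and Aqp3 6 and 38. Slc5a12 had 15 and 5. Over the 17 markers of proximal tubule, thick ascending limb, distal tubule and collecting duct, the heart level was at a median of 1.46% of the kidney level with CLP (0 to 7.47%) and of 2.98% with MLT (0.733 to 27.3%), and this share, which also depends on the kidney level, was higher with MLT than with CLP for 16 markers. The 12 genes had medians of 1.89% (0.705 to 3.41%) with CLP and 2.61% (1.47 to 3.26%) with MLT, and for 10 of them the share was higher with MLT. Kap, an androgen-driven protein of the proximal tubule, had 4352 counts in CLP heart and 9602 in CLP + MLT heart beside 448683 and 439585 in kidney. Aqp2, the water channel of the collecting duct, had 26 counts in CLP heart and 143 in CLP + MLT heart. The part of kidney RNA in the heart libraries in these ratios was not tested. Of all 376 tested genes with a kidney level 10 times the heart level or more, 22.6% were at least 2-fold higher in the CLP + MLT heart, against 1.30% of all tested genes, and 3.46% were so in kidney. That level ratio and the heart log2 ratio share the CLP heart library. A gene with fewer than 50 counts in CLP heart was also tested only if it had more than 50 in CLP + MLT heart. The share of 22.6% is therefore a description only. When genes were kept only where the heart level was 5% or more of the kidney level with CLP and with MLT, an alternative chosen after seeing the data, 13 of the 25 genes remained, and of the other classes only Gatm was lost.

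Among the 13 others were genes of white blood cells. Lyz2, lysozyme of macrophages and neutrophils, was the most abundant, with 552 and 1219 counts in kidney and 998 and 2171 in heart. Its log2 ratio was 1.81 (1.67 to 1.96) in kidney and 1.13 (1.02 to 1.24) in heart. Aif1, which encodes IBA1 of macrophages, had 52 and 106 counts in kidney and 94 and 198 in heart, with log2 ratios of 1.69 and 1.08. That the CLP + MLT libraries were above their CLP library for these genes follows from how the genes were selected.

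Ighm encodes the heavy chain constant region of IgM, made by B cells and plasma cells. It had 20 and 87 counts in kidney and 25 and 115 in heart, with log2 ratios of 2.76 (2.08 to 3.57) and 2.19 (1.58 to 2.90), which was the largest smaller-of-2 ratio among the genes higher in both. Pou2f2, a transcription factor of B cells, had 61 and 96 in kidney and 57 and 122 in heart. The B cell markers were almost absent: Ms4a1 was at 0 in all 4 libraries, Cd79a at 2, 2, 0 and 0 counts, and Cd79b at 12 and 23 in kidney and 2 and 16 in heart.

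Rac2, the GTPase of blood cells that drives migration and the oxidative burst, had 117 and 177 counts in kidney and 126 and 347 in heart, with log2 ratios of 1.26 and 1.47. Fgd2, an exchange factor of antigen-presenting cells for the GTPase CDC42, had 69 and 102 in kidney and 126 and 402 in heart. Dok2, an adaptor of myeloid and T cells, had 71 and 152 in kidney and 75 and 154 in heart, and Cd52, a surface glycoprotein of lymphocytes and monocytes, had 131 and 241 in kidney and 74 and 154 in heart. Adora2a, an adenosine receptor that restrains leukocytes, had 65 and 86 in kidney and 188 and 392 in heart, with the same log2 ratio, 1.07, in each. Its counting intervals ran from 0.59 to 1.56 in kidney and from 0.82 to 1.33 in heart. For Rac2, Fgd2, Dok2, Cd52, Aif1 and Pou2f2 as well, the counting interval in kidney, heart or both reached inside 2-fold.

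The 3 macrophage markers summed to 55.0 CPM in CLP kidney and 110 CPM in CLP + MLT kidney, and to 66.4 and 85.0 CPM in the heart libraries. They did not move together: Csf1r had log2 ratios of 1.13 in kidney and 0.15 in heart, Adgre1 0.69 and 1.56, and Cd68 −0.49 and −0.03. T cell markers summed to 1.83 and 2.08 CPM in kidney and 1.66 and 1.11 in heart, near the limit of detection. Macrophage marker sums were thus higher with MLT in both organs, though Cd68 was not, and neutrophil marker sums were lower in both. The white blood cell genes above were higher in both organs by selection. B cell marker sums, 0.571 and 1.62 CPM in kidney and 0.123 and 0.988 CPM in heart, were also near the limit of detection. The part of these cells in the ratios was not tested. Of 19 tested genes for macrophages and antigen presentation, 1 was higher in both organs (Lyz2) and 1 lower in both (Fcgr4), with medians of −0.02 in kidney and 0.15 in heart.

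The 25 also held genes with near-identical copies elsewhere. Gm10095, a processed pseudogene, had 4 counts in CLP kidney and 534 in CLP + MLT kidney, beside 309 and 690 in heart, and its kidney log2 ratio of 7.53 (6.37 to 9.61) was the highest of any tested gene. It matched 86 other genes at 90% identity or more, among them copies of Rpl21, and its closest matches were 99.2% identical over 483 bases. In its 5 closest matches with counts, the kidney log2 ratios ran from −0.12 to 0.50 and the heart log2 ratios from −0.83 to −0.19. Gm4076 is a nuclear copy of mt-Nd5, 95.2% identical over 954 bases, with 64 and 100 counts in kidney and 39 and 85 in heart, while mt-Nd5 itself had log2 ratios of 0.76 and 0.52. The mitochondrial gene mt-Atp8, a subunit of the ATP synthase that shares 43 bases with mt-Atp6, had 867 and 1143 counts in kidney and 413 and 949 in heart. For mt-Atp6 the log2 ratios were 0.72 in kidney and −0.64 in heart. Ankrd13d, an ankyrin repeat protein that binds ubiquitin, had 52 and 69 counts in kidney and 29 and 77 in heart.

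**Figure D3:**
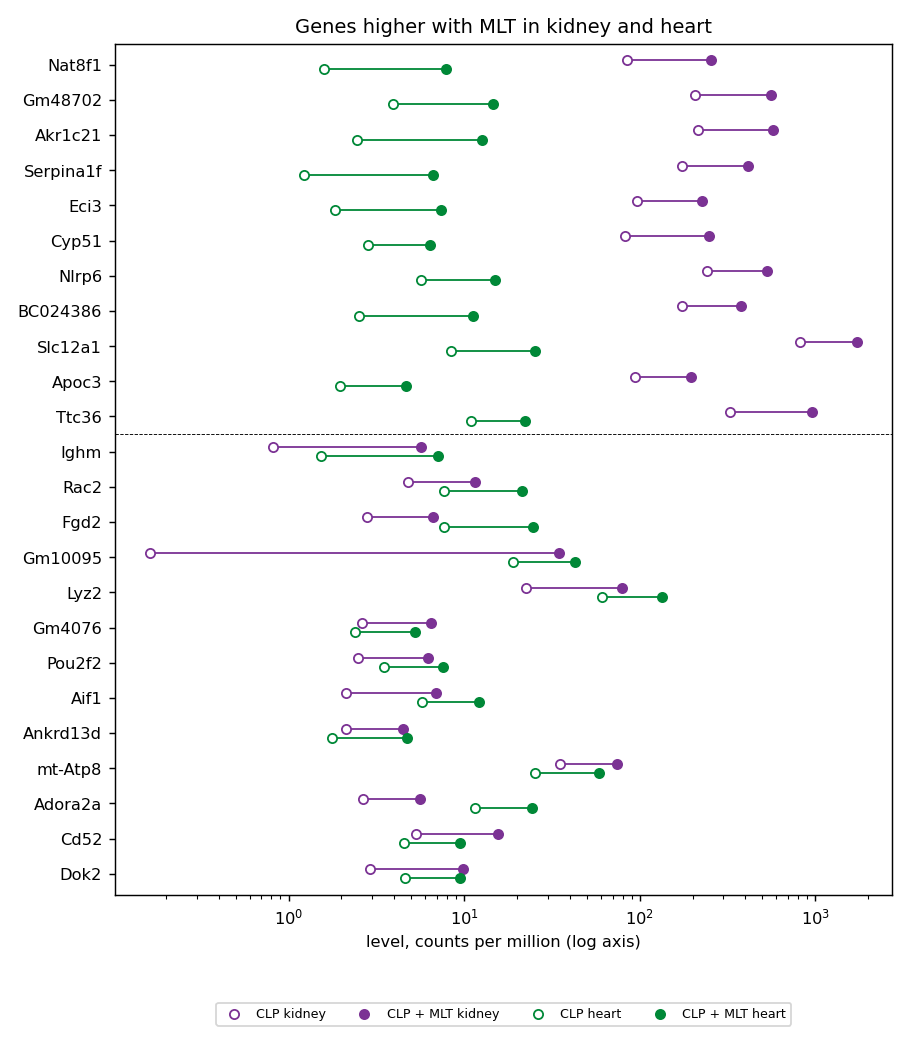
Level in CPM (log axis) of the genes higher with MLT in both organs, except 1 not reported here, with open circles for CLP and filled circles for CLP + MLT libraries of kidney (violet) and heart (green). Above the dashed line are genes with a CLP kidney level 10 times the heart level or more, such as Slc12a1 at 823 and 8.40 CPM, and below it are the other 13.

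The 13 genes higher in the CLP + MLT kidney and lower in the CLP + MLT heart were mostly RNAs other than ordinary mRNA. Only 4 were protein-coding by annotation (mt-Nd3, Lars2, Cryab and Ovol1). The others were pseudogenes, antisense RNAs, miRNA-type entries, a ribosomal RNA and the 7SK RNA. Protein-coding were 20 of the 25 genes higher in both, 13 of the 15 lower in both, and all 6 lower in kidney and higher in heart. The protein-coding share of all tested genes was not computed. The median exon length of the 13 was 471 bases, against 4492 for all tested genes. Under 1000 bases long were 8 of the 13, against 4.32% of tested genes. After the trend on gene length was taken out of the ratios of each tissue, 3 of the 13 were still past 2-fold in both (mt-Nd3, Lars2 and Ovol1). When the libraries were scaled by size only, 5 were (mt-Nd3, Gm23935, Lars2, Rn7sk and CT010467.1).

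CT010467.1 is annotated as ribosomal RNA and lies on chromosome 17 from 39846353 to 39848827. It had 62988 counts in CLP kidney, 112093 in CLP + MLT kidney, 172910 in CLP heart and 82473 in CLP + MLT heart. Its log2 ratios were 1.50 (1.49 to 1.52) and −1.06 (−1.07 to −1.05). The libraries were made with poly-A selection, which removes most ribosomal RNA, and what remained was thus highest in the CLP heart and lowest in the CLP kidney library.

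Gm23935 and Gm24270, on chromosomes 16 and 9, are annotated as miRNA genes and moved with it. Gm23935 had 7331 and 13698 counts in kidney and 18400 and 8145 in heart, and Gm24270 had 297 and 499 in kidney and 703 and 341 in heart. Their annotated transcripts (GENCODE M21) are printed because they are letter for letter the same. Reads lying wholly within them would fit both genes equally and would be left out of the counts. The counts of the genes differed widely, and which bases placed the counted reads was not tested. The transcripts lie at chr16:11144125-11144181 on the plus strand and chr9:56223715-56223771 on the minus strand.
Gm23935: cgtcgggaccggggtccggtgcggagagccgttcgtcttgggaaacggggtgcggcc
Gm24270: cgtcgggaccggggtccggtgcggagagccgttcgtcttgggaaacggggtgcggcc
The further entries, Gm24245 and Gm24187, matched them over all 57 bases at 100% and 98.2% identity. Gm24245 was at 0 in all 4 libraries, and Gm24187 had 14 and 37 counts in kidney and 69 and 30 in heart.

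The counts of several of these genes kept an almost constant proportion to CT010467.1. Lars2, which encodes the mitochondrial leucyl-tRNA synthetase, had 2796 and 4698 counts in kidney and 7475 and 3409 in heart. As a percentage of the CT010467.1 counts this was 4.44% in CLP kidney, 4.19% in CLP + MLT kidney, 4.32% in CLP heart and 4.13% in CLP + MLT heart, a span of 1.07-fold. Gm23935 stood at 11.6%, 12.2%, 10.6% and 9.88%, a span of 1.24-fold, and Gm24270 at 0.472%, 0.445%, 0.407% and 0.413%, a span of 1.16-fold. Rn7sk, the 7SK RNA that holds the elongation factor P-TEFb inactive, had 97 and 168 counts in kidney and 306 and 145 in heart, and spanned 1.18-fold. For Cryab the span was 1.47-fold, for mt-Nd3 1.69-fold and for Ovol1 2.55-fold. Of related genes outside the class, Gm15564 spanned 1.18-fold and Gm24187, with low counts, 1.80-fold. All members of the class were selected on the same 2 ratios, which favours a similar proportion within each tissue. The exons of Lars2 share 72 bases at 98.6% identity with the antisense gene Gm15564, which had 24 and 40 counts in kidney and 67 and 27 in heart, log2 ratios of 1.39 and −1.29. The part of ribosomal RNA carried into the libraries in the counts of these genes was not tested.

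Among the 19 genes with opposite signs, the difference between the organs was largest for mt-Nd3, a subunit of complex I encoded by the mitochondrial genome from base 9459 to 9806. It had 5472 counts in CLP kidney, 14712 in CLP + MLT kidney, 21130 in CLP heart and 6414 in CLP + MLT heart. Its log2 ratio was 2.10 (2.05 to 2.14) in kidney and −1.71 (−1.75 to −1.67) in heart, a difference of 3.81 (3.75 to 3.87). In CPM it ran from 223 to 956 in kidney and from 1296 to 396 in heart, so that heart was above kidney with CLP and below it with MLT. All 15 tested genes of the mitochondrial genome were above 0 in kidney and 9 were in heart, with medians of 0.93 and 0.11, so that the kidney direction was common to them and the heart direction was not. A nuclear copy, Gm28438, 99.7% identical over 345 bases, had 2199 and 3218 counts in kidney and 4539 and 3565 in heart. Reads fitting it and mt-Nd3 equally would be left out of the counts.

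The pseudogenes Ndufs6b and Cox6c2 belong to nuclear genes of the respiratory chain. Ndufs6b had 61 and 86 counts in kidney and 136 and 39 in heart, with log2 ratios of 1.16 and −1.78, and its parent Ndufs6, a complex I subunit 96.6% identical over 348 bases, had 0.33 and −1.39. Cox6c2 had 101 and 129 counts in kidney and 207 and 64 in heart, with log2 ratios of 1.02 and −1.68, and its parent Cox6c, a subunit of cytochrome oxidase 97.0% identical over 231 bases, had 0.70 and −1.54. Parents and copies thus had the same signs, and the parents stayed inside 2-fold in kidney. Of 76 tested nuclear genes of oxidative phosphorylation, 0 were past the limit in both organs, 50 were at least 2-fold lower in the CLP + MLT heart (2.75% of all tested genes were), and the medians were 0.34 in kidney and −1.22 in heart.

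Gm8430, a copy of the ribosomal protein and ubiquitin gene Rps27a at 99.8% identity, had 138 and 195 counts in kidney and 146 and 52 in heart. Rps27a itself had log2 ratios of −0.15 and −0.53, of the other sign than its copy in kidney and of the same sign in heart. Gm12953 lies antisense within Tmem69 and had 100 and 130 counts in kidney and 81 and 30 in heart, and Tmem69 had log2 ratios of −0.09 and −2.17. Gm15512, antisense to Arhgap22, had 138 and 190 in kidney and 84 and 40 in heart, while Arhgap22 had log2 ratios of 0.43 and −0.28.

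Cryab encodes alpha B-crystallin, a small heat shock protein that protects the contractile fibres of heart muscle and is also found in the kidney medulla. It had 4085 and 5369 counts in kidney and 7721 and 3639 in heart, with log2 ratios of 1.07 (1.01 to 1.13) and −1.08 (−1.13 to −1.02). The adjacent small heat shock gene Hspb2 overlaps it on the other strand and had 78 and 64 counts in kidney and 570 and 213 in heart, a heart log2 ratio of −1.41. Cryab was the only one of 20 tested heat shock genes in any of the 4 classes, and their medians were −0.23 in kidney and −0.19 in heart. Cardiomyocyte markers were lower in the CLP + MLT heart by their sum, from 31370 to 20760 CPM, but not all alike: Myl2 and Tnni3 had heart log2 ratios of −1.33 and −1.27, and Actc1 and Mybpc3 had 0.47 and 0.12. Their part in the heart ratio of Cryab was not tested. Ovol1, a zinc finger repressor of epithelial cells, had 158 and 243 counts in kidney and 170 and 82 in heart, with log2 ratios of 1.29 and −1.04.

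**Figure D4:**
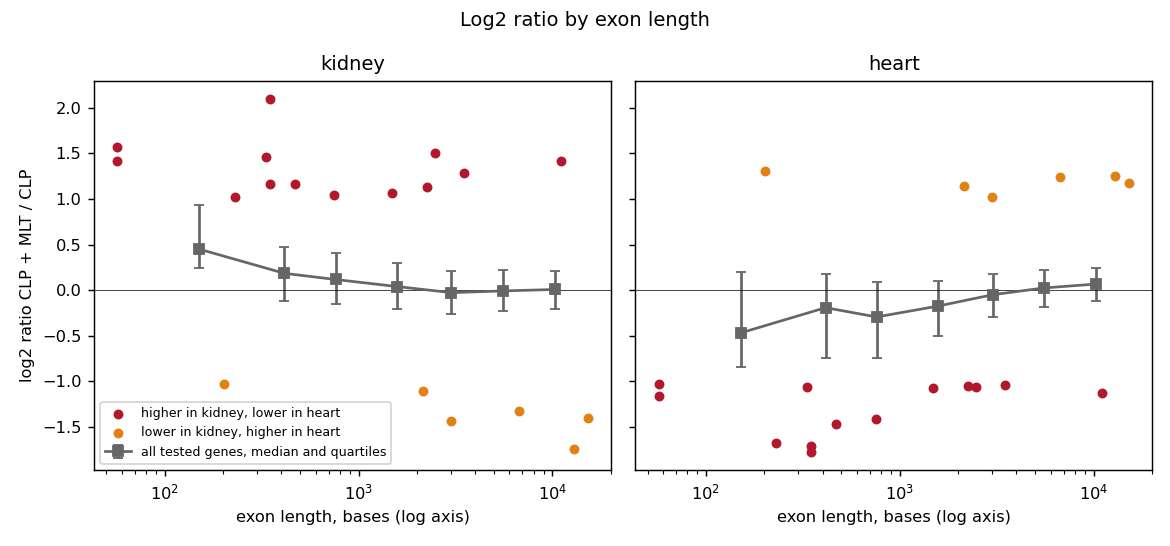
Log2 ratio of CLP + MLT over CLP against exon length in bases (log axis) in kidney (left) and heart (right), with grey squares and bars for the median and quartiles of all tested genes in 7 length classes and coloured points for the 19 genes with opposite signs. In the shortest class, up to 250 bases, the medians of all tested genes were 0.45 in kidney and −0.47 in heart.

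The 6 genes lower in the CLP + MLT kidney and higher in the CLP + MLT heart were protein-coding by annotation and had low counts in at least 1 library. Atf3, a stress-induced transcription factor, had 97 and 28 counts in kidney and 78 and 172 in heart, with log2 ratios of −1.11 (−1.78 to −0.50) and 1.15 (0.76 to 1.56). The organs thus had similar levels with CLP, 3.95 and 4.78 CPM, and different ones with MLT, 1.82 and 10.6 CPM. Of 18 tested immediate early genes it was the only one in this class, and the medians of that list were −0.52 in kidney and 0.06 in heart. Jun, a partner of ATF3, had 1125 and 398 counts in kidney and 506 and 645 in heart, with log2 ratios of −0.83 and 0.36, and Egr1 had −1.01 and −0.19.

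Pde10a encodes a phosphodiesterase that breaks down cAMP and cGMP. It had 87 and 16 counts in kidney and 62 and 147 in heart, with log2 ratios of −1.75 (−2.64 to −0.99) and 1.25 (0.82 to 1.71), the most negative kidney minus heart difference of the class at −3.00 (−3.88 to −2.12). Among the 29 members with a promoter, Atf3 and Pde10a were the ones with a cAMP response element (TGACGTCA, TGACGCAA, TGATGTCA or TTACGTCA, both strands). Of the 27025 genes, 7.20% had such an element, a share near that of the members. RefSeq gives 2 start sites for Pde10a, and the element was found in the promoter window of the second alone. The Atf3 promoter is printed because the element sits directly at the start site, 10 to 3 bases before it. It lies at chr1:191183334-191183583 on the minus strand (GRCm38.p6, RefSeq), and capitals mark the element and, farther upstream, a metal response core.
Atf3: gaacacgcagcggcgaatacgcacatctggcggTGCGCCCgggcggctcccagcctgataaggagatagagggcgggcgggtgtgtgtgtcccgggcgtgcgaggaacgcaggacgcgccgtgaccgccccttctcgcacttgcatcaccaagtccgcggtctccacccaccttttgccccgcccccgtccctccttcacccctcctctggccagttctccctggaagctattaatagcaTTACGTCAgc
A match is a description of the letters only. No share of members with a motif was tested.

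Mical2, an enzyme that oxidizes actin and so promotes transcription by SRF, had 106 and 25 counts in kidney and 367 and 822 in heart, with log2 ratios of −1.40 and 1.17. Amz1, a metallopeptidase, had 149 and 37 in kidney and 49 and 116 in heart, with log2 ratios of −1.33 and 1.24. Gatm encodes the mitochondrial amidinotransferase that starts creatine synthesis, chiefly in the proximal tubule, and had 1380 and 321 counts in kidney and 33 and 67 in heart. Its log2 ratio was −1.43 (−1.61 to −1.26) in kidney and 1.02 (0.41 to 1.68) in heart, where its level was 3.60% of that in kidney with CLP and 19.8% with MLT. It was thus a kidney-rich gene with a low heart count, and the only one of the kidney-rich members that was lower in the CLP + MLT kidney and higher in the CLP + MLT heart. Gm10197 has 196 bases identical to the other strand of Mxi1, and its 95, 29, 29 and 72 counts cannot be told from that gene's reads, whose log2 ratios were −0.37 and 0.47.

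**Figure D5:**
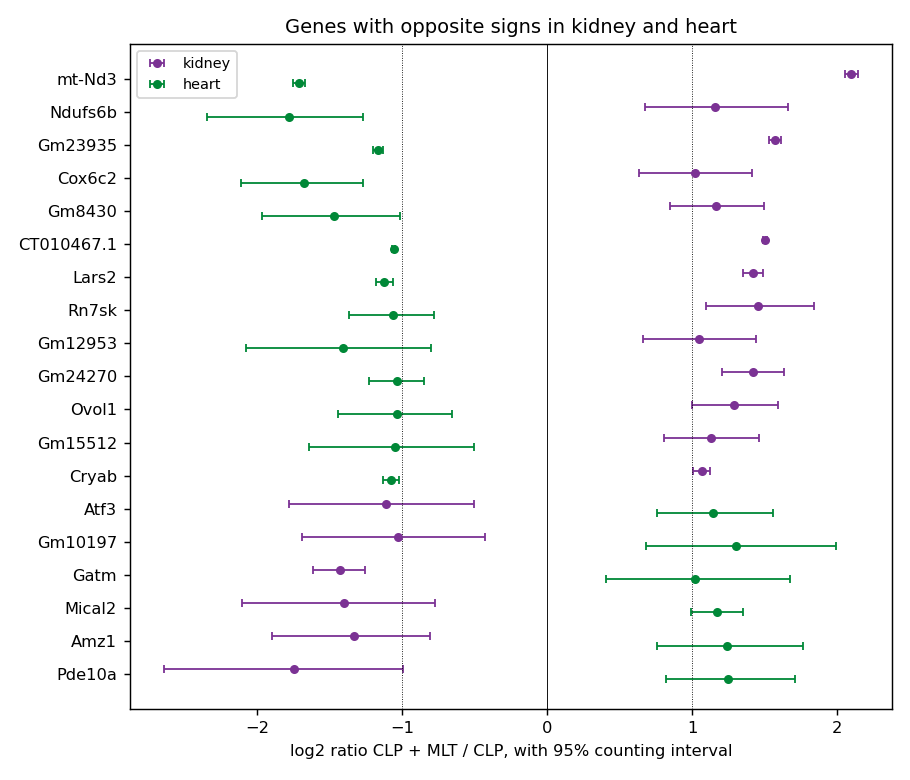
Log2 ratio of CLP + MLT over CLP with its 95% counting interval in kidney (violet) and heart (green) for the 19 genes with opposite signs, ordered by the kidney minus heart difference. Intervals are narrow for CT010467.1 and mt-Nd3 and cross the dotted 2-fold lines in kidney, heart or both for the 6 genes lower in kidney and higher in heart.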

How the data were processed

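RNA (1 μg) was poly-A selected with a kit that does not mark strand. Per the labels, the authors aligned reads to mm10 with HISAT2 2.1.0, counted them with HTSeq and deposited the counts per gene, without normalization. Strand setting and gene annotation: not given in the sources used here. Reads on no gene, 29.6 to 37.7% of each file, and the other summary rows were left out. Among them were reads aligned to more than 1 place, 23.6% of the CLP kidney and 32.6% of the CLP + MLT kidney file. In heart such reads were 38.6% of the CLP and 37.0% of the CLP + MLT file.

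TMM factors were computed within each tissue with edgeR 4.0.16 in R 4.3.3 on genes with a mean of 10 or more counts. Ratios were formed after adding 0.5 counts, scaled to the library, for genes with a mean of 50 or more counts in both tissues. Intervals are 95% exact Clopper-Pearson intervals, and those of differences use the errors of the 4 counts on the log scale. PCR copies are not independent molecules. Other steps used Python 3.11.15, numpy 2.4.6, pandas 2.3.3 and scipy 1.17.1. Near-identical genes were found by blastn at 90% identity or more. Positions are from GENCODE M21, which matched 55141 of 55401 identifiers.

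No count model was fitted, since each group had 1 library. The procedure was tested on simulated counts. Members, gene lists and motifs were chosen with earlier results of these data known, and the metal response core was added after seeing the values. By rule, the text names the 10 members of each class with the largest smaller-of-2 ratio, members on a gene list and the 3 genes on each side of the limit. The other members and the related genes beside them were chosen after their values were seen. Alternatives covered scaling (DESeq2 1.42.0 size factors, upper quartile, library size, TMM over 4 libraries), prior count, filters, gene types, fold, and trends on length and GC content. The values of 1 member and 1 related gene are not reported here.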

Additional observations from a re-analysis of the deposited data

Results flagged for a closer look

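The 19 genes with opposite signs were picked out because their single kidney and heart ratios went opposite ways. With 1 library per group the difference was not tested, and the sign of each difference follows from how the genes were selected. The kidney minus heart difference of log2 ratios was 3.81 for mt-Nd3, 2.94 for Ndufs6b, 2.74 for Gm23935, 2.70 for Cox6c2, 2.64 for Gm8430, 2.56 for CT010467.1, 2.54 for Lars2, 2.52 for Rn7sk, 2.45 for Gm12953, 2.45 for Gm24270, 2.33 for Ovol1, 2.18 for Gm15512 and 2.14 for Cryab. It was −3.00 for Pde10a, −2.57 for Amz1, −2.57 for Mical2, −2.45 for Gatm, −2.34 for Gm10197 and −2.26 for Atf3. None of their counting intervals reached 0.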

How the results depend on the processing

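No paired analysis was possible because each group has 1 library, and for the same reason no library could be left out. Counts are given in the order higher in both, lower in both, higher in kidney and lower in heart, and lower in kidney and higher in heart, against 25, 15, 13 and 6. They were 591, 749, 561 and 741 without any filter, 80, 62, 44 and 36 at a mean of 10 or more counts, and 5, 6, 6 and 0 with a mean of 200 or more. They were 90, 82, 89 and 56 at 1.5-fold, and 10, 7, 5 and 0 where both counting intervals had to lie past 2-fold. The genes higher in kidney and lower in heart numbered 5 when scaled by library size only, 4 among protein-coding genes and 3 with the length trend removed. Those higher in both numbered 13 where the heart level had to be 5% or more of the kidney level, chosen after seeing the data. The other counts stayed within 1.5 times. Scaling by library size shifted the median of all genes to −0.20 in kidney and 0.05 in heart, and 8 of the 25, 1 of the 15 and 8 of the 13 left their class. Of 1239 recomputed ratios and differences of members, 97 left their counting interval, and 0 kidney or heart ratios changed sign. Members were selected at a log2 ratio of 1 or more in size, so the absence of sign changes is a description only. The limit of depth is plain for genes such as Pde10a and Saa2, with 16 and 11 counts in the CLP + MLT kidney.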
